A study of Mus musculus with 6 samples.

Results

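The genes described here are 41 genes of the cell cycle and of DNA replication, among the 55421 genes counted in RNA sequencing of splenic monocytes. They were taken from a list of symbols, which was chosen with earlier results of these data known. The question asked of them was the level of proliferation transcripts in each library of IL-4Rα-/- against IL-4Rα+/+ mice. All 41 were found among the counted genes, on 17 chromosomes, and all 41 had enough reads to be tested. A cell that divides first loads the MCM helicase onto its replication origins, then copies its DNA with the polymerase clamp PCNA and with nucleotides made by ribonucleotide reductase and thymidylate synthase, and finally separates the chromosomes on a spindle under the control of CDK1, cyclin B and the Aurora and Polo kinases. The genes of replication are largely switched on by E2F factors at the entry into S phase, and those of mitosis by a later complex that binds the CHR and CCAAT elements of their promoters. Monocytes are made by dividing precursors in bone marrow and, in mice, also in the spleen, and mature monocytes divide little.

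The mice were of the C57BL/6 strain per the labels, and the methods give an age of 8 to 16 weeks for all animals. One group was IL-4Rα+/+ and the other IL-4Rα-/-, in which the interleukin-4 receptor alpha chain is missing from every cell of the body and not from monocytes alone. No group was treated. Each group had 3 mice, and each library came from 1 mouse. Monocytes were left in the spleen suspension by negative selection, in which antibodies and magnetic beads take out the other leukocytes, so cells that carry none of the antibodies' targets can remain. A transcript level in such a bulk sample cannot tell more cells in cycle from more RNA per cell in cycle.

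Between 26807281 and 29033297 reads fell on genes, and levels are given as CPM, the counts scaled by TMM to libraries of equal size. *Il4ra* was lower in each IL-4Rα-/- library, at 27.9, 79.4 and 31.8 CPM against 137, 128 and 177 CPM. All 12 monocyte markers, among them *Csf1r*, *Ccr2* and *Lyz2*, were above 1 CPM in every library and summed to between 19350 and 25200 CPM. The monocyte markers were thus present in every library, with *Lyz2* alone at 8847 to 17030 CPM, and the purity of the cells was not measured. *Xist*, from the inactive X chromosome of females, was high in IL-4Rα+/+ replicate 1 and IL-4Rα-/- replicate 3, so the sexes were mixed within both groups.

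IL-4Rα+/+ replicate 2 stood apart in these genes. It was the lowest of the 6 libraries in 38 of the 41 members, whereas 18.6% of all genes tested had their lowest value there. Its level over the mean of the other IL-4Rα+/+ libraries had a median of 0.465 over the members, with a range from 0.222 for *Ccnb1* to 1.006 for *Tk1*, against a median of 0.99 over all genes tested. Counts, medians and the fold changes of the named genes are therefore also given without this library.

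Promoter sequences were read for the members to show the elements by which these genes are usually grouped. RefSeq sequences of GRCm38.p6 from 250 bases before to 50 after the gene's start matched 34 members. *Mcm4*, *Ccna2*, *Aurkb*, *Tpx2*, *Ccne2*, *Stmn1* and *Kif20a* had none. The CHR element was searched as TTTGAA, the CCAAT box as CCAAT and the E2F site as TTTCCCGC, TTTCGCGC, TTTGCCGC or TTTGGCGC, each on both strands. Overlapping matches were counted, as in *Mcm6*, where a pair of E2F matches on opposite strands overlap. The 150 bases before the start are given for *Top2a*, *Kif11* and *Cdc20* as mitotic genes with CHR and CCAAT, for *Cdk1* with all 3 elements, and for *Mcm6* and *Mcm5* as replication genes with E2F and CCAAT but no CHR. They run 5′ to 3′ along the gene's strand, with matches to the searched elements in capitals, and the last 26 bases of *Cdk1* and the last 9 of *Cdc20* lie inside a longer GENCODE transcript.
Top2a, chr11:99024190-99024339, minus strand: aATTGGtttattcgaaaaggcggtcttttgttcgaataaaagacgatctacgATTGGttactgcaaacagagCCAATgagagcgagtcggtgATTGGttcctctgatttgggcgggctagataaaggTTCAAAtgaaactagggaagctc
Kif11, chr19:37376232-37376381, plus strand: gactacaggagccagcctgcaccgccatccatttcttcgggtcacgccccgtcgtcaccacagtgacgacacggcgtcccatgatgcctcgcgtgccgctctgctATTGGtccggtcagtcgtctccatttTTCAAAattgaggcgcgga
Cdc20, chr4:118437344-118437493, minus strand: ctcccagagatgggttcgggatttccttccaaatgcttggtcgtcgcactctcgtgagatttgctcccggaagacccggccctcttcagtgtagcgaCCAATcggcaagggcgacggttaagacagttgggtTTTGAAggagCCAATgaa
Cdk1, chr10:69352913-69353062, minus strand: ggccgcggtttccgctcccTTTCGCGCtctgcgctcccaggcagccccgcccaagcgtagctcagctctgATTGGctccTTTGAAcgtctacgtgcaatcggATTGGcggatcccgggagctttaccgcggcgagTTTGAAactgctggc
Mcm6, chr1:128359706-128359855, minus strand: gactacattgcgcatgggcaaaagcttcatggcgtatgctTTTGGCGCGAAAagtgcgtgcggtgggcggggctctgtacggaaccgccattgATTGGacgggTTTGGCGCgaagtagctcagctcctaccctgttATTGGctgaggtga
Mcm5, chr8:75109359-75109508, plus strand: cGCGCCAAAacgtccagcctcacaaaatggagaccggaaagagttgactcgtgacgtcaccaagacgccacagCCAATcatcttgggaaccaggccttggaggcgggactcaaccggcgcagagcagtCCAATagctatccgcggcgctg

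CHR was found in 16 of the 34 members with a promoter (47.1%), against 20.2% of the promoters of 27025 genes. CCAAT was found in 27 members (79.4%) against 41.1% of all genes, and an E2F site in 8 members (23.5%) against 2.6% of all genes. The E2F matches lay in *Uhrf1*, *Cdc6*, *Cdt1*, *Mcm3*, *Mcm5*, *Mcm6*, *Mcm7* and *Cdk1*, all but *Uhrf1* and *Cdk1* being licensing or fork genes. A match of these letters is a description of the window and not a bound site, and a window without one says nothing of the factor.

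Most members were at a higher level in the IL-4Rα-/- libraries. The log2 fold change, fitted by edgeR, was above 0 for 40 of the 41 members and had a median of 0.71, against a median of 0.01 over all 13849 genes tested, of which 51.5% were higher. The exception was *Kif23*, at -0.01. The members summed to 834, 507 and 756 CPM in IL-4Rα+/+ replicates 1, 2 and 3 and to 1005, 891 and 1025 CPM in IL-4Rα-/- replicates 1, 2 and 3. No IL-4Rα-/- library lay below an IL-4Rα+/+ library in this sum. The share of all reads outside genes also did not overlap between genotypes, at 10.3 to 11.7% in IL-4Rα+/+, highest in replicate 2, against 8.87 to 9.68% in IL-4Rα-/- libraries, and that of multimapping reads was 8.30 to 8.86% against 9.03 to 9.36%. Their part in the members' levels was not tested.

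**Figure D1:**
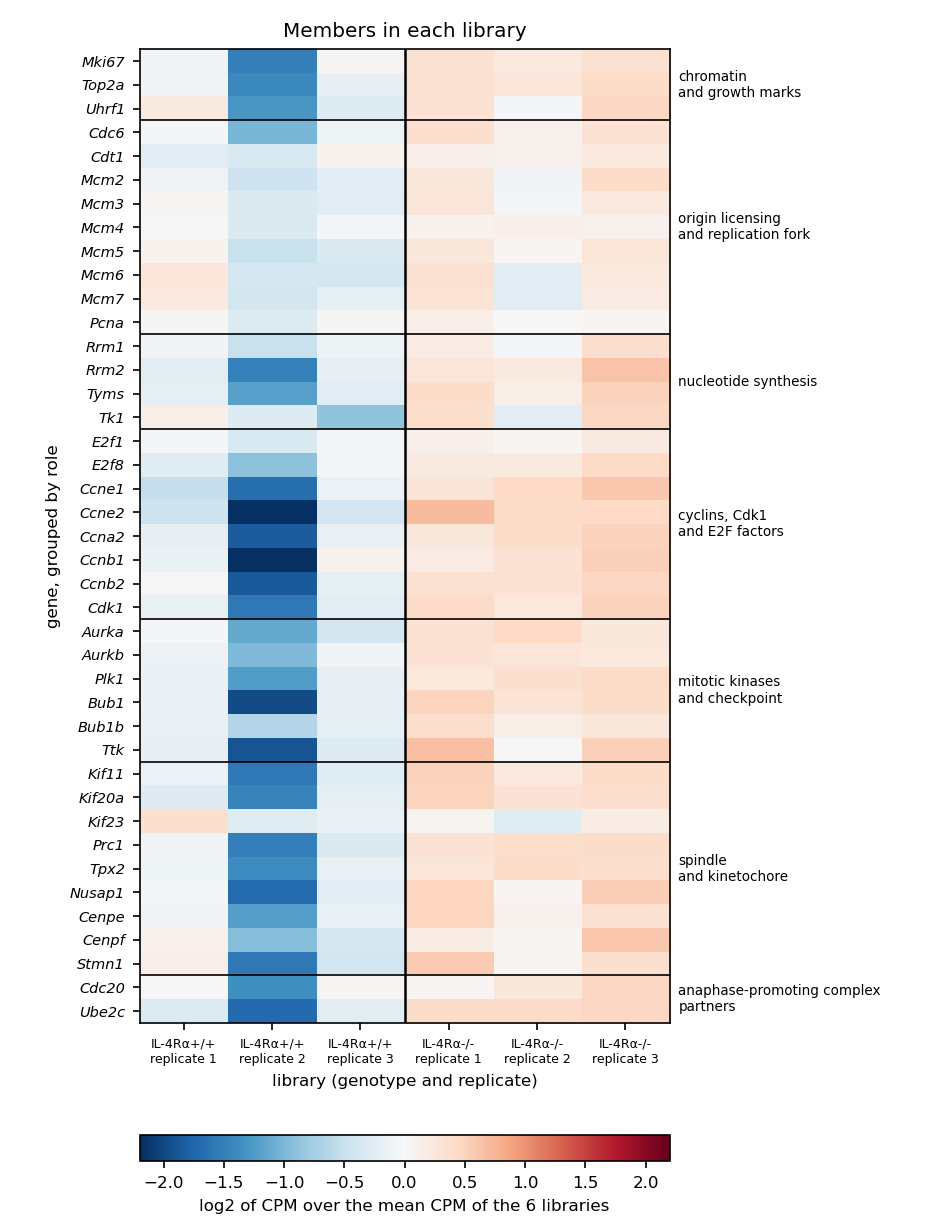
Level of each of the 41 members (rows, by role) in each of the 6 libraries (columns), as the log2 of its CPM over its mean CPM across the libraries, blue below and red above that mean. The column of IL-4Rα+/+ replicate 2 is the darkest blue, with the lowest level of 38 members, and the IL-4Rα-/- columns are mostly red.

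None of the members passed the threshold of an adjusted p-value under 0.15 in the quasi-likelihood fit of edgeR, adjusted by the Benjamini-Hochberg method (0 of 41 members, 0% of all genes tested). Their adjusted p-values ran from 0.618 to 0.991. *Il4ra* did not pass in this fit either, at a log2 fold change of -1.67 and an adjusted p-value of 0.618. DESeq2 called *Il4ra* at an adjusted p-value of 0.011. At an unadjusted p-value under 0.05, 20 members were higher, which is 48.8% of them against 3.72% of all genes tested. In the other direction there were 0 members, against 4.37% of all genes tested. Every IL-4Rα-/- library lay above every IL-4Rα+/+ library in 31 members (75.6%), against 7.63% of all genes tested, and below in 0 members, against 7.87%. DESeq2 called 80 of 14003 genes (0.571%) at the same threshold and 0 of the members, whose smallest adjusted p-value was 0.178. In that tool 30 members were higher at an unadjusted p-value under 0.05, against 2.36% of 25728 genes. Those 25728 include genes with few counts, which the edgeR fit left out, so the 2 shares of all genes are not alike. Scaling by the upper quartile turned the genes at an unadjusted p-value under 0.05 from 515 higher and 605 lower to 695 higher and 432 lower, with 22 members higher.

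The members' mean log2 CPM was 3.75, 2.70 and 3.62 in the IL-4Rα+/+ libraries and 4.14, 3.97 and 4.19 in the IL-4Rα-/- libraries. This gave 3.36 ± 0.57 (SD, n = 3) against 4.10 ± 0.12 (SD, n = 3), a difference of 0.74. The spread in IL-4Rα+/+ came from replicate 2, and replicates 1 and 3 alone had an SD of 0.091. For single members the highest over the lowest library had a median of 2.22 in IL-4Rα+/+ and 1.21 in IL-4Rα-/- mice, against 1.29 and 1.25 over all genes tested. Between IL-4Rα+/+ replicates 1 and 3 alone it was 1.09 over the members. Among the IL-4Rα-/- libraries, replicate 3 was the highest of all 6 in 22 members, replicate 1 in 15 and replicate 2 in 3.

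Without IL-4Rα+/+ replicate 2, the difference in mean log2 CPM was 0.41. The median log2 fold change was then 0.44, with 40 members higher and 1 lower. There were 20 members higher at an unadjusted p-value under 0.05, against 2.15% of all genes tested, and 15 of them were also among the 20 with all libraries. In that edgeR fit 0 genes passed the threshold. The smallest adjusted p-value of a member was 0.901, against 0.618 with all libraries. This library was set apart because the members were low in it, so smaller standard errors without it are no independent support. The count of members at an unadjusted p-value under 0.05 also depended on the IL-4Rα-/- mice. It was 3 members without IL-4Rα-/- replicate 1 (1.78% of all genes tested), 13 without replicate 2 (2.87%) and 4 without replicate 3 (3.36%), while the median log2 fold change was 0.68, 0.75 and 0.70 in turn.

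*Mki67* (ENSMUSG00000031004.8, chromosome 7 from 135689784 to 135716361 of GRCm38, minus strand) encodes the Ki-67 protein that coats mitotic chromosomes and marks cells in cycle. Its level was 52.4, 19.9 and 57.3 CPM in IL-4Rα+/+ and 70.9, 65.2 and 70.9 CPM in IL-4Rα-/- mice. The genotypes did not overlap, and the IL-4Rα+/+ values fell into a low one and a pair near each other. The log2 fold change was 0.68 (SE 0.36), and 0.33 (SE 0.09) without IL-4Rα+/+ replicate 2. *Top2a*, the topoisomerase that untangles sister chromatids, had 50.3, 19.6 and 46.1 CPM against 66.1, 62.6 and 68.7 CPM. Its log2 fold change was 0.77 (SE 0.32), and 0.45 (SE 0.09) without that library. *Uhrf1*, which carries DNA methylation over to the new strand, had 14.5, 5.17 and 10.4 CPM against 15.7, 12.4 and 17.4 CPM, so that IL-4Rα-/- replicate 2 fell within the IL-4Rα+/+ range. None of these 3 genes had an unadjusted p-value under 0.05 with all libraries, and *Mki67* and *Top2a* did without IL-4Rα+/+ replicate 2.

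**Figure D2:**
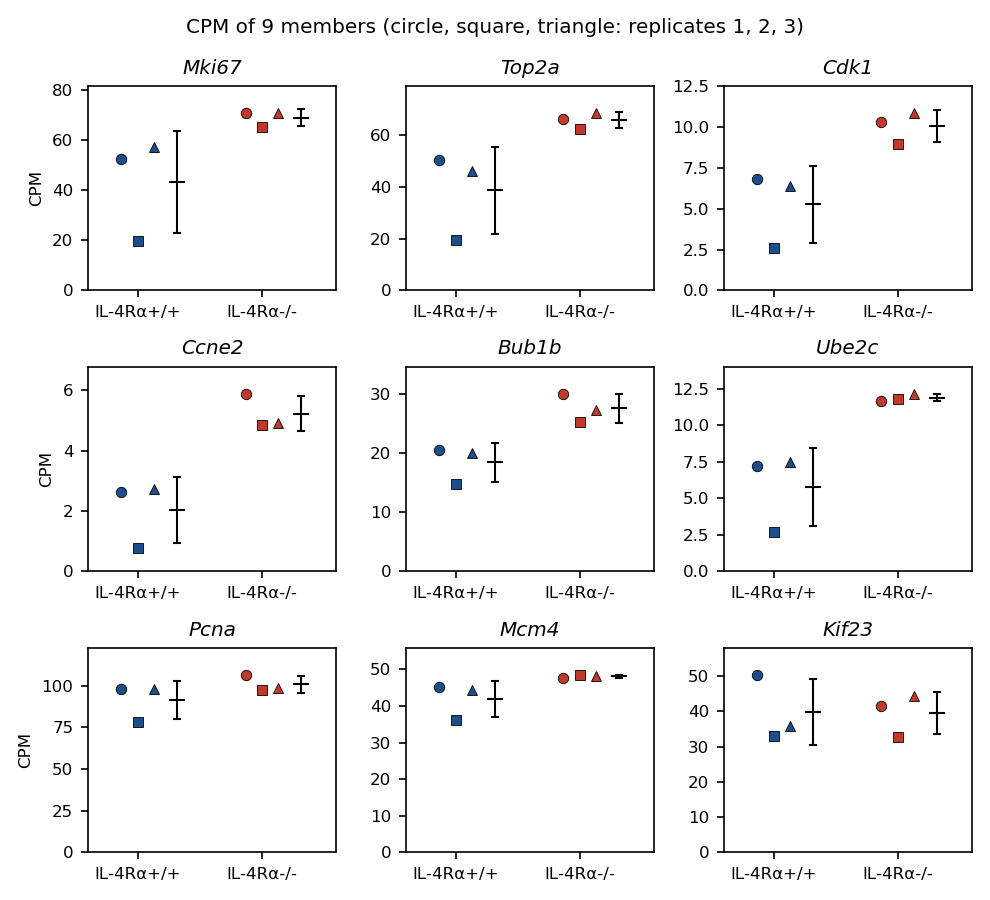
CPM of 9 members in the 3 libraries of each genotype, IL-4Rα+/+ on the left and IL-4Rα-/- on the right of each panel, with the mean and SD (n = 3) beside the points. In *Ccne2*, *Bub1b* and *Ube2c* every IL-4Rα-/- point lies above every IL-4Rα+/+ point, in *Pcna* only 2 of them lie above the highest IL-4Rα+/+ point, and in *Kif23* none does.

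Licensing and fork genes included the most abundant members and had the smallest median difference of the 7 role groups. Per kilobase of exon, the mean level was highest for *Pcna*, at 40.1 CPM, followed by *Mcm4* at 12.6, *Mcm5* at 11.1 and *Mcm3* at 10.5 CPM, and lowest for *Cenpf* at 0.447 CPM. The median log2 fold change of the 9 genes was 0.30, and 0.22 without IL-4Rα+/+ replicate 2. In that library they were also the least reduced, at a median of 0.796 of the other IL-4Rα+/+ libraries.

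*Pcna* (ENSMUSG00000027342.14, chromosome 2 from 132249162 to 132253314, minus strand), the sliding clamp of the polymerases, had 98.1, 78.1 and 98.1 CPM in IL-4Rα+/+ and 107, 97.3 and 98.5 CPM in IL-4Rα-/- mice. The genotypes overlapped, and the log2 fold change was 0.14 (SE 0.11), or 0.04 (SE 0.08) without IL-4Rα+/+ replicate 2. *Mcm4*, a subunit of the replicative helicase, had 45.3, 36.2 and 44.3 CPM against 47.7, 48.6 and 48.2 CPM, without overlap but with a log2 fold change of 0.20 (SE 0.10), or 0.10 (SE 0.07) without IL-4Rα+/+ replicate 2. *Mcm2*, another subunit, had 20.2, 15.6 and 17.9 CPM against 25.5, 20.6 and 28.3 CPM. Its log2 fold change was 0.47 (SE 0.15), or 0.38 (SE 0.16) without that library. It was 1 of the 4 genes of the group with an unadjusted p-value under 0.05 (against 3.72% of all genes tested). The others were *Cdt1*, which loads the helicase, at 0.30 (SE 0.12), *Mcm3* at 0.32 (SE 0.13) and *Mcm5* at 0.42 (SE 0.16), which were 0.22, 0.25 and 0.30 without that library. *Mcm6* and *Mcm7* had 1 IL-4Rα-/- library above the highest IL-4Rα+/+ library, and IL-4Rα-/- replicate 2 lay inside the IL-4Rα+/+ range of both. *Cdc6*, which brings the helicase to the origin together with *Cdt1*, was at 5.69, 2.93 and 5.55 CPM against 7.53, 6.31 and 7.37 CPM. Without IL-4Rα+/+ replicate 2 all 9 genes were still higher, and 0 of them had an unadjusted p-value under 0.05.

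Genes of nucleotide synthesis differed more. *Rrm1*, the large subunit of ribonucleotide reductase, had 35.4, 26.4 and 34.1 CPM in IL-4Rα+/+ and 41.7, 36.0 and 47.9 CPM in IL-4Rα-/- mice. The S phase subunit *Rrm2* had 16.8, 7.06 and 17.6 CPM against 23.7, 23 and 30.6 CPM. *Rrm2* had a log2 fold change of 0.90 (SE 0.34) and *Rrm1* one of 0.39 (SE 0.15). *Tyms*, thymidylate synthase, had 5.13, 2.57 and 5.02 CPM against 7.75, 6.48 and 8.39 CPM, a log2 fold change of 0.83 (SE 0.29). All 3 were without overlap (against 7.63% of all genes tested) and had an unadjusted p-value under 0.05 (against 3.72%). *Rrm2* and *Tyms* kept such a p-value without IL-4Rα+/+ replicate 2, at log2 fold changes of 0.59 (SE 0.16) and 0.57 (SE 0.19), while *Rrm1* was at 0.27 (SE 0.14). *Tk1*, the thymidine kinase of the salvage path, did not share the low value of IL-4Rα+/+ replicate 2. Its level was 10.2, 7.67 and 5.02 CPM against 12.2, 7.92 and 12.8 CPM, with overlap.

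Cyclins, *Cdk1* and the E2F factors had the largest median log2 fold change of the 7 role groups, 0.89. In all 8 genes each IL-4Rα-/- library lay above each IL-4Rα+/+ library (against 7.63% of all genes tested). Without IL-4Rα+/+ replicate 2 the median was 0.51, below the 0.55 of the nucleotide genes and the 0.53 of the mitotic kinases and checkpoint genes. *Ccne2* (ENSMUSG00000028212.16, chromosome 4 from 11191351 to 11204779, plus strand), a cyclin E that drives entry into S phase, had the largest log2 fold change of the members, 1.36 (SE 0.46), or 0.96 (SE 0.21) without that library. Its level was low, at 2.64, 0.760 and 2.72 CPM against 5.89, 4.87 and 4.90 CPM. The other cyclin E, *Ccne1*, had 2.57, 1.16 and 3.32 CPM against 4.43, 4.94 and 5.51 CPM, a log2 fold change of 1.08 (SE 0.38), or 0.75 (SE 0.23) without that library.

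*Ccna2*, the cyclin A of S and G2 phase, had 14.3, 4.52 and 14.5 CPM in IL-4Rα+/+ and 19.2, 21.3 and 23 CPM in IL-4Rα-/- mice. *Cdk1*, the kinase that starts mitosis, had 6.85, 2.57 and 6.42 CPM against 10.3, 8.97 and 10.9 CPM. The log2 fold change was 0.93 (SE 0.41) for *Ccna2* and 0.93 (SE 0.36) for *Cdk1*, and 0.56 (SE 0.12) and 0.60 (SE 0.16) without IL-4Rα+/+ replicate 2. *Ccnb1*, the cyclin B that activates CDK1, was the member most reduced in that library, where it had 25 counts. It was at 3.76, 0.904 and 4.38 CPM against 4.71, 5.15 and 5.95 CPM, with a log2 fold change of 0.81 (SE 0.52), or 0.37 (SE 0.21) without that library. *E2f1*, an activator of S phase genes, differed least of the group, at 24.3, 19.6 and 24.1 CPM against 26.9, 25.7 and 28.4 CPM. *E2f8*, a repressor that acts later in S phase, had 13.7, 8.79 and 16 CPM against 18.9, 19.2 and 22.3 CPM. The fold changes on the log2 scale were 0.26 (SE 0.11) for *E2f1* and 0.65 (SE 0.22) for *E2f8*, and 0.16 (SE 0.09) and 0.44 (SE 0.14) without IL-4Rα+/+ replicate 2.

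In the 6 mitotic kinases and checkpoint genes every IL-4Rα-/- library lay above every IL-4Rα+/+ library (against 7.63% of all genes tested). Of these genes, 4 had an unadjusted p-value under 0.05 (against 3.72% higher). *Bub1b* (ENSMUSG00000040084.9, chromosome 2 from 118598211 to 118641591, plus strand), which encodes the checkpoint protein BUBR1, had the smallest p-value of the members, 0.0066 unadjusted and 0.618 adjusted in edgeR's quasi-likelihood test. Its level was 20.6, 14.7 and 20.0 CPM in IL-4Rα+/+ and 30.0, 25.3 and 27.2 CPM in IL-4Rα-/- mice. The log2 fold change was 0.58 (SE 0.15), and 0.44 (SE 0.11) without IL-4Rα+/+ replicate 2. *Aurkb*, the Aurora kinase of the centromere, had 14.9, 8.39 and 15.7 CPM against 20.5, 19.6 and 19.2 CPM. *Aurka*, the Aurora kinase of the spindle poles, had 7.77, 3.62 and 6.00 CPM against 10.03, 10.8 and 9.47 CPM. On the log2 scale the fold change was 0.61 (SE 0.23) for *Aurkb*, 0.80 (SE 0.28) for *Aurka* and 0.78 (SE 0.29) for the Polo kinase *Plk1*, and without IL-4Rα+/+ replicate 2 it was 0.37, 0.55 and 0.51 in turn. The checkpoint kinases *Bub1* and *Ttk* had larger values with larger errors, 0.95 (SE 0.44) and 1.04 (SE 0.46), or 0.56 (SE 0.16) and 0.67 (SE 0.29) without that library. *Ttk* had the fewest counts of any member in 1 library, 18 in IL-4Rα+/+ replicate 2.

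Among 9 spindle and kinetochore genes, 8 were higher. *Kif11*, the motor that pushes the spindle poles apart, had 14.3, 5.25 and 13 CPM in IL-4Rα+/+ and 22.2, 18.1 and 20.6 CPM in IL-4Rα-/- mice. *Kif20a*, a motor of the late spindle, had 7.98, 3.51 and 8.49 CPM against 13.7, 12.2 and 12.6 CPM. Their log2 fold changes were 0.91 (SE 0.35) and 0.95 (SE 0.32), and they were 0.57 (SE 0.14) and 0.64 (SE 0.14) without IL-4Rα+/+ replicate 2. *Prc1* and *Tpx2*, which bundle and build spindle microtubules, were the other members of the group with an unadjusted p-value under 0.05, at 0.87 (SE 0.34) and 0.78 (SE 0.32), or 0.55 (SE 0.14) and 0.47 (SE 0.12) without that library. *Kif23* (ENSMUSG00000032254.10, chromosome 9 from 61915905 to 61946774, minus strand), a motor of the midbody needed for the last step of division, had nearly no difference between genotypes. It had 50.4, 32.9 and 35.9 CPM against 41.3, 32.8 and 44.4 CPM, and its log2 fold change of -0.01 (SE 0.19) had the largest adjusted p-value of the members. It was -0.13 (SE 0.20) without IL-4Rα+/+ replicate 2. *Cenpf* and *Stmn1*, a kinetochore protein and a regulator of microtubules, overlapped between genotypes with 2 IL-4Rα-/- libraries above the IL-4Rα+/+ range.

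Partners of the anaphase-promoting complex mark mitotic proteins for destruction. *Ube2c* (ENSMUSG00000001403.13, chromosome 2 from 164769898 to 164778822, plus strand), its ubiquitin-conjugating enzyme, had 7.20, 2.71 and 7.48 CPM in IL-4Rα+/+ and 11.7, 11.8 and 12.2 CPM in IL-4Rα-/- mice. The IL-4Rα-/- values were close together and well above the highest IL-4Rα+/+ value. The log2 fold change was 1.04 (SE 0.36), and 0.70 (SE 0.13) without IL-4Rα+/+ replicate 2. *Cdc20*, its activator, had 6.89, 2.75 and 7.10 CPM against 7.18, 8.27 and 9.61 CPM, where the lowest IL-4Rα-/- value was just above the IL-4Rα+/+ range. Its log2 fold change was 0.58 (SE 0.36), or 0.26 (SE 0.18) without IL-4Rα+/+ replicate 2.

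**Figure D3:**
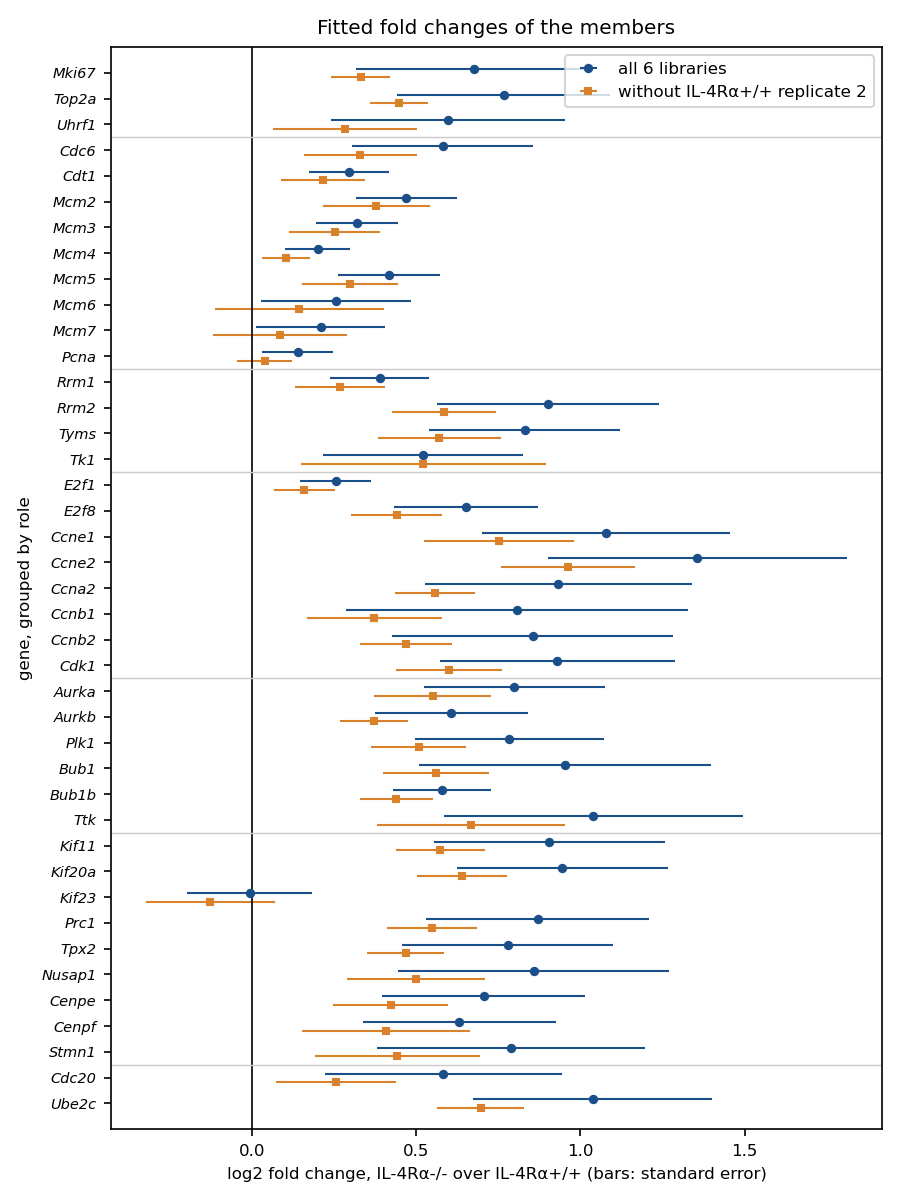
Fitted log2 fold change of each of the 41 members (IL-4Rα-/- over IL-4Rα+/+, horizontal axis) with its standard error, from all 6 libraries (circles) and without IL-4Rα+/+ replicate 2 (squares). Without that library 40 of the 41 values, all but that of *Tk1*, are smaller, with a median of 0.44 against 0.71, and 40 of 41, all but that of *Kif23*, are above 0.

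The members were also set side by side by promoter element, for their level in IL-4Rα+/+ replicate 2 over the other IL-4Rα+/+ libraries. The median ratio was 0.403 in the 16 members with CHR, as in *Top2a*, *Kif11*, *Cdc20* and *Cdk1* above, and 0.636 in the 18 without. It was 0.758 in the 8 members with an E2F site, as in *Mcm6* and *Mcm5*, and 0.438 in the 26 without. The median log2 fold change between genotypes was 0.78 with CHR and 0.55 without, and 0.37 with an E2F site and 0.78 without. For CCAAT the ratio was 0.465 in the 27 members with it and 0.521 in the 7 without, and the log2 fold change 0.68 and 0.58. These medians describe the members and were not tested.

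Other genes of the same processes were listed beside the members. These lists were chosen with earlier results of these data known and were read in the same libraries, so they are no independent check. Of 30 further replication genes 29 were higher in the IL-4Rα-/- libraries, 8 of them at an unadjusted p-value under 0.05 (against 3.72% of all genes tested). In 11 every IL-4Rα-/- library was above every IL-4Rα+/+ library (against 7.63%). Without IL-4Rα+/+ replicate 2, 27 were higher and 6 had such a p-value (against 2.15%). Their median log2 fold change was 0.35, or 0.30 without IL-4Rα+/+ replicate 2. *Gins1*, part of the helicase complex, had 4.46, 3.87 and 3.36 CPM against 7, 6.09 and 5.45 CPM, a log2 fold change of 0.66 (SE 0.19), or 0.66 (SE 0.23) without that library. *Pold1*, the catalytic subunit of polymerase delta, had 39.4, 30.5 and 28.2 CPM against 38.8, 28.9 and 35.7 CPM, with overlap and a log2 fold change of 0.08 (SE 0.16), or 0.03 (SE 0.19).

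Of 30 further mitotic genes 30 were higher, 11 at an unadjusted p-value under 0.05, and 18 were without overlap, read against the same 3.72% and 7.63%. Without IL-4Rα+/+ replicate 2, 30 were higher and 10 had such a p-value. The median log2 fold change was 0.69, or 0.43 without IL-4Rα+/+ replicate 2. *Pbk*, a mitotic kinase, had 2.95, 1.27 and 2.95 CPM against 6.75, 4.59 and 5.18 CPM, a log2 fold change of 1.2 (SE 0.36), or 0.90 (SE 0.24) without that library. *Smc4*, a condensin subunit, had 90.7, 74.9 and 78.6 CPM against 88.2, 74.3 and 97.4 CPM, a log2 fold change of 0.09 (SE 0.12), or 0.03 (SE 0.14). The mitotic list was thus near the mitotic members and the replication list near the licensing members in median.

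The D-type cyclins, which answer to growth signals, and the inhibitors of the cycle had mixed directions. Of 5 D-type cyclins and their kinases 3 were higher and 2 lower, with 1 at an unadjusted p-value under 0.05 (against 3.72% of all genes tested). This was *Ccnd2*, a cyclin D that growth factors induce, at 51.9, 46.0 and 41.3 CPM against 56.8, 53.3 and 54.2 CPM, a log2 fold change of 0.24 (SE 0.10), or 0.23 (SE 0.12) without IL-4Rα+/+ replicate 2. *Ccnd3*, the most abundant of the cyclins D here, had 419, 361 and 421 CPM against 421, 540 and 444 CPM, and a log2 fold change of 0.23 (SE 0.12), or 0.16 (SE 0.13). Of 10 Cdk inhibitors and Rb family genes 3 were higher and 7 lower, with a median of -0.12. The inhibitor *Cdkn2c*, an E2F target in dividing cells, had 11.7, 8.57 and 11.6 CPM against 15, 14.4 and 14.5 CPM, a log2 fold change of 0.46 (SE 0.15), or 0.32 (SE 0.11) without that library. *Cdkn1b*, which encodes the inhibitor p27, had 271, 175 and 183 CPM against 203, 161 and 174 CPM, a log2 fold change of -0.22 (SE 0.19), or -0.34 (SE 0.20).

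Markers of other cells moved with the members in part. The 14 erythroid markers tested summed to 66.9, 132 and 110 CPM in IL-4Rα+/+ and 184, 187 and 447 CPM in IL-4Rα-/- mice. All 14 were higher, 11 of them at an unadjusted p-value under 0.05 (against 3.72% of all genes tested). Their median log2 fold change was 1.45, or 1.61 without IL-4Rα+/+ replicate 2. DESeq2 called 3 of them at an adjusted p-value under 0.15, against 0.571% of genes in that tool. The erythroid sum was highest in IL-4Rα-/- replicate 3. In IL-4Rα+/+ replicate 2, where the members were lowest, the sum was the highest of the IL-4Rα+/+ group, while 9 of the 14 markers had their lowest value of all libraries there, *Klf1* with 1 count. The other 5, the globin genes and *Alas2*, were at their highest among the IL-4Rα+/+ libraries in that library. The 5 promyelocyte markers summed to 25.3, 6.58 and 46.3 CPM against 51.3, 89.9 and 34.9 CPM, with the lowest value of all 5 genes in IL-4Rα+/+ replicate 2. Unlike the members, they were highest in IL-4Rα-/- replicate 2. The 7 neutrophil markers, of which 6 were tested and 5 of these were higher, summed to 46.3, 51.9 and 220 CPM against 155, 534 and 90.2 CPM, and *Ly6g* had 3 counts or fewer in at least 1 library. Of the neutrophil markers tested, 3 were higher at an unadjusted p-value under 0.05 (against 3.72% of all genes tested), and DESeq2 called 1. The part of erythroid cells and of myeloid precursors in the members' levels was not tested.

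The 5 stem and progenitor markers had overlapping ranges, 83.1 to 111 CPM against 88.5 to 102 CPM. The 8 B and plasma cell markers tested had a mean log2 CPM of 3.09 in IL-4Rα+/+ replicate 2 and 3.75 in IL-4Rα-/- replicate 3, against 1.49 to 1.76 in the other libraries, and *Mzb1* had 3 counts in IL-4Rα+/+ replicate 1. All 9 listed summed to 134, 195 and 126 CPM against 218, 191 and 243 CPM, so in the sum IL-4Rα-/- replicate 1 lay above IL-4Rα+/+ replicate 2. The 7 T and NK cell markers were high in IL-4Rα+/+ replicate 2 and IL-4Rα-/- replicate 3, with a mean log2 CPM of 3.06 and 2.99 against 1.13 to 2.04. The members were lowest in the first of these libraries and highest in the second. The 6 dendritic cell markers summed to 168 to 246 CPM against 161 to 204 CPM. In mean log2 CPM the 12 monocyte markers lay at 9.37 ± 0.06 (SD, n = 3) in the IL-4Rα+/+ group against 9.35 ± 0.03 (SD, n = 3) in the other, so the difference of the members was larger than that of the monocyte markers.

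**Figure D4:**
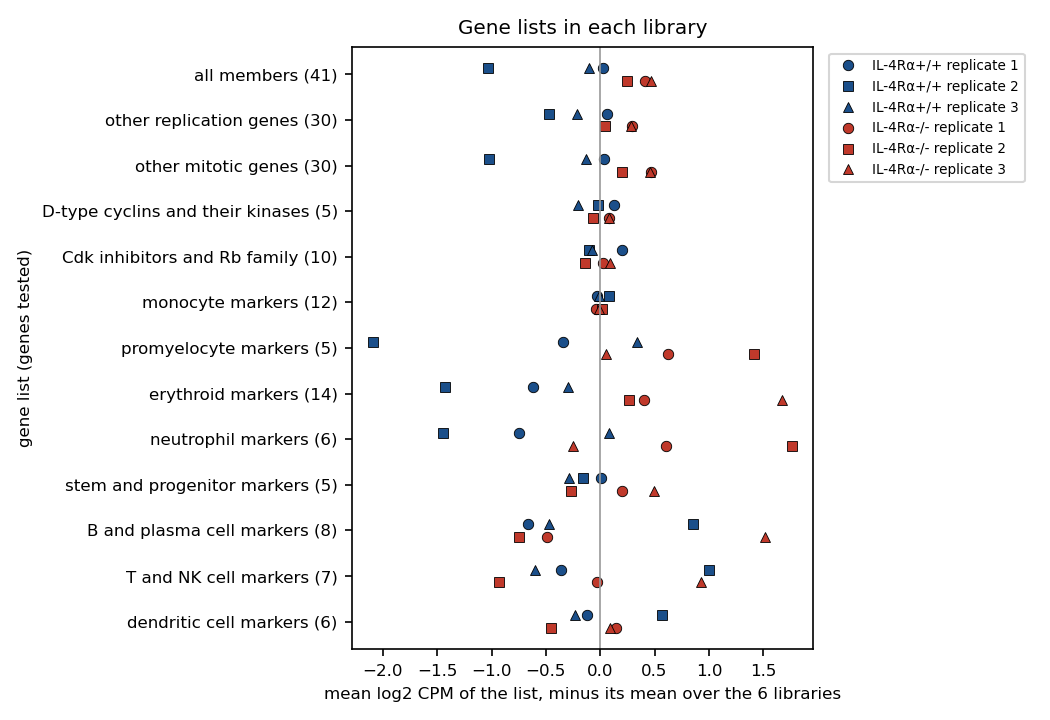
Mean log2 CPM of each gene list in each library, minus the list's mean over the 6 libraries (horizontal axis), for the members, 4 lists of related genes and 8 lists of cell type markers, with the number of genes tested in brackets. IL-4Rα+/+ replicate 2 is the lowest point of the members, of both lists of other cell cycle genes and of the promyelocyte, erythroid and neutrophil markers, and the monocyte markers lie close together.

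The counts of some members could hold reads of a neighbour. The exons of 13 members overlap those of another gene, of 11 on the opposite strand and of 3 on the same strand. Such overlaps were present for *Mcm7* with *Cops6* and *Ap4m1*, *Ccna2* with *Exosc9*, *Ccne2* with *Ints8*, *Cdc20* with *Elovl1* and *Kif20a* with *Cdc23*. The libraries were directional, but the strand setting of the count is not given in the sources used here, so these counts are uncertain. *Pcna*, *Tyms*, *Ccnb1*, *Ccnb2* and *Stmn1* have annotated pseudogenes with which they could share reads.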

How the data were processed

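RNA of splenic monocytes from 3 mice of each genotype was read as single ends of 75 bp. The submitters' processing notes list STAR 2.6.1a and GRCm38. The authors counted uniquely mapped reads per gene and deposited raw counts, 1 library per file, and the lines for reads not assigned to 1 gene were dropped here. Depth was 26807281 to 29033297 reads on genes, and counts of 3 or fewer were taken as not seen. Symbols and positions came from GENCODE M21, in which 55240 of 55421 identifiers matched.

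The function filterByExpr, at a minimum of 10 counts, kept 13849 genes. They were scaled by TMM and compared, unpaired, by quasi-likelihood in edgeR 4.0.16 (R 4.3.3), and p-values were adjusted by Benjamini-Hochberg at the study's threshold of 0.15. No gene passed. DESeq2 1.42.0 was an alternative. Standard errors (SE) are the log2 fold change over the square root of F. Mean log2 CPM used a prior count of 2. For 3 mice against 3 the smallest exact permutation p-value is 0.10, so none is given. The steps were tested on simulated data with larger fold changes than the members had, the same spread for every gene and no outlying library. That test does not show whether fold changes of the members' size would be found here. The labels name mice and no further origin of the libraries, and replicates differed by more than sampling noise.

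The members, lists and tests were chosen with earlier results of these data known. The members to be named were, in each role, the 2 with the highest mean CPM and the 1 with the smallest p-value, with *Mki67*, *Top2a*, *Pcna*, *Cdk1* and *Ccnb1*, and in each list of related genes the 1 with the highest mean CPM and the 1 with the smallest p-value. Other members are given beside these, chosen after their values were seen.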

Additional observations from a re-analysis of the deposited data

How the results depend on the processing

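DESeq2 called 80 genes, where edgeR called 0 (with 1120 at an unadjusted p-value under 0.05), and 0 members in either. When 1 mouse was left out, the number of members higher at an unadjusted p-value under 0.05 lay between 3 and 29, lowest without IL-4Rα-/- replicate 1 and also low, at 4, without IL-4Rα-/- replicate 3. With the replicate block it was 29, against 2.92% of all genes, with 0 genes called, a median log2 fold change of the members of 0.81 and a smallest adjusted p-value of 0.812. For each gene, the deviation of a library from the mean of its genotype was taken. Between same-numbered libraries these deviations had correlations of 0.185, -0.271 and -0.296, so same numbers were not taken as pairs. *Kif23* changed sign, to 0.016 with upper-quartile scaling, 0.006 with the replicate block, 0.011 with the *Xist* level as a covariate, 0.2 without IL-4Rα+/+ replicate 1 and 0.11 without IL-4Rα-/- replicate 2, against -0.126 without IL-4Rα+/+ replicate 2. The cause was not tested. The covariate and edgeR's newer dispersion estimate were chosen after seeing the data. Of 280 fold changes of the 20 named members over 14 settings, 271 were positive, 5 had the other sign than with all libraries and 0 passed the threshold, with a lowest adjusted p-value of 0.178. Without a filter on low counts 28 members were higher at an unadjusted p-value under 0.05, against 2.52% of all genes, and with a prior count of 0.5 the difference in mean log2 CPM was 0.75. At 18 counts or more in every library, depth kept no member from the test.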
